A study of Mus musculus with 8 samples.

Results

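The dermal matrix genes described here, 10 in number, were followed through sorted mouse skin cells. The set held 10 of the 24421 genes in the expression table, taken by symbol: the proteoglycan genes Dcn, Lum and Ogn, the fibril-associated gene Dpt, the microfibril genes Fbn1 and Mfap5, the matricellular genes Postn and Sparc, the fibronectin gene Fn1, and the receptor gene Pdgfra. The cells came from 4 C57BL/6J mice that all carried ROSA mTmG and Tyr:CreERT2 and all received tamoxifen, once a day for 10 days from day 21 after birth. Cells with the mTmG allele carry tdTomato at the membrane and switch to EGFP once Cre has recombined it. The Cre here needs tamoxifen and is driven by regulatory sequence of tyrosinase, a pigment gene, so EGFP marks the melanocyte lineage. Back skin was shaved and depilated on day 50 and taken on day 54. The 4 groups were EGFP+ cells of 2 UVB-treated mice (UV EGFP+), EGFP+ cells of 2 mock-treated mice (no UV EGFP+), tdTomato+ cells of the same 2 UVB-treated mice (UV tdTomato+) and tdTomato+ cells of the same 2 mock-treated mice (no UV tdTomato+). UVB was given at 150 mJ/cm2 for 3 days, and mock-treated mice had normal light. Replicates 1 and 2 of the UV groups were mice 3 and 4, and replicates 1 and 2 of the no UV groups were mice 1 and 2. EGFP+ cells were sorted as melanocytes and tdTomato+ cells as all other skin cells, so no library was of fibroblasts alone.

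Dermal fibroblasts secrete collagens and the small leucine-rich proteoglycans that coat and space collagen fibrils. They also lay down fibrillin microfibrils, which scaffold elastic fibres and hold latent TGF-beta, and matricellular proteins such as periostin, which tune how cells attach to the matrix rather than carry load. Fibronectin is assembled into fibrils through integrins and is known from the early matrix of healing wounds, and PDGF receptor alpha is a surface marker of the fibroblast lineage in skin.

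Library totals ran from 11186363 to 16711981 reads. The sort labels were set against marker genes. The summed value of 8 melanocyte markers ran from 523784 to 615877 normalized reads in EGFP+ libraries and from 2616 to 44454 in tdTomato+ libraries. The 10 keratinocyte markers summed to 717 to 899 in EGFP+ libraries and to 254168 to 368279 in tdTomato+ libraries. The 17 fibroblast markers summed to 924 to 1328 in EGFP+ libraries and 9938 to 13329 in tdTomato+ libraries. Pdpn alone made up most of that EGFP+ sum in every library but UV EGFP+ replicate 2. Ly6a was the largest part of each tdTomato+ sum. Taken singly over all mice, 14 of the 17 were called lower in EGFP+ cells by limma and 1, Pdpn, higher. In UV EGFP+ replicate 2, 11186 genes were detected, against 14503 to 17076 in the other libraries. In that library 238 of the 8933 genes with at least 50 reads in each of the other 3 EGFP+ libraries (2.66%) had 3 reads or fewer. The same count was 1 to 21 genes in the other libraries. Xist had 477 reads in no UV EGFP+ replicate 1 and 1103 in no UV tdTomato+ replicate 1, the pair from mouse 1, and 4 or fewer elsewhere, so mouse 1 stood apart from the other 3 mice in sex-linked transcripts.

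Most of the genes were far lower in EGFP+ cells than in tdTomato+ cells, Sparc and Fbn1 did not pass the test, and fibronectin was higher. Over all 4 mice, 6 of the 10 genes (Dcn, Postn, Lum, Dpt, Mfap5 and Ogn) were lower in EGFP+ cells and 1 (Fn1) was higher, at a limma adjusted p under 0.05. Of all 18070 genes tested, 28.9% passed the same test, 9.66% as higher and 19.2% as lower. That is 1746 higher and 3471 lower genes, against 2618 and 2671 under quantile normalization and 2655 and 2895 after rescaling without the 20 most abundant genes, while the 10 genes kept the same split of 1 and 6 calls. Fn1 was called higher in UVB-treated mice (2.65) and not in mock-treated mice (0.24). Pdgfra, Fbn1 and Sparc did not pass. All 10 genes passed the filter on low values, but Ogn, Dpt and Mfap5 passed it through tdTomato+ libraries alone. A gene that passed that way entered the test through the population where it was high, so its lower call is weak support. Counts for the companion lists below, over all mice, stand against the same 19.2% lower and 9.66% higher of all genes. UVB moved none of the 10 past an adjusted p of 0.05 in either cell population by limma, although Fn1 came closest in EGFP+ cells and passed in 2 count models. These are bulk libraries, in which fewer cells of a type and less RNA per cell cannot be told apart. Values are given as normalized reads, differences are log2(value + 1) of EGFP+ minus tdTomato+ or of UVB minus no UV, and errors are standard errors (SE) unless named as standard deviations (SD).

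**Figure D1:**
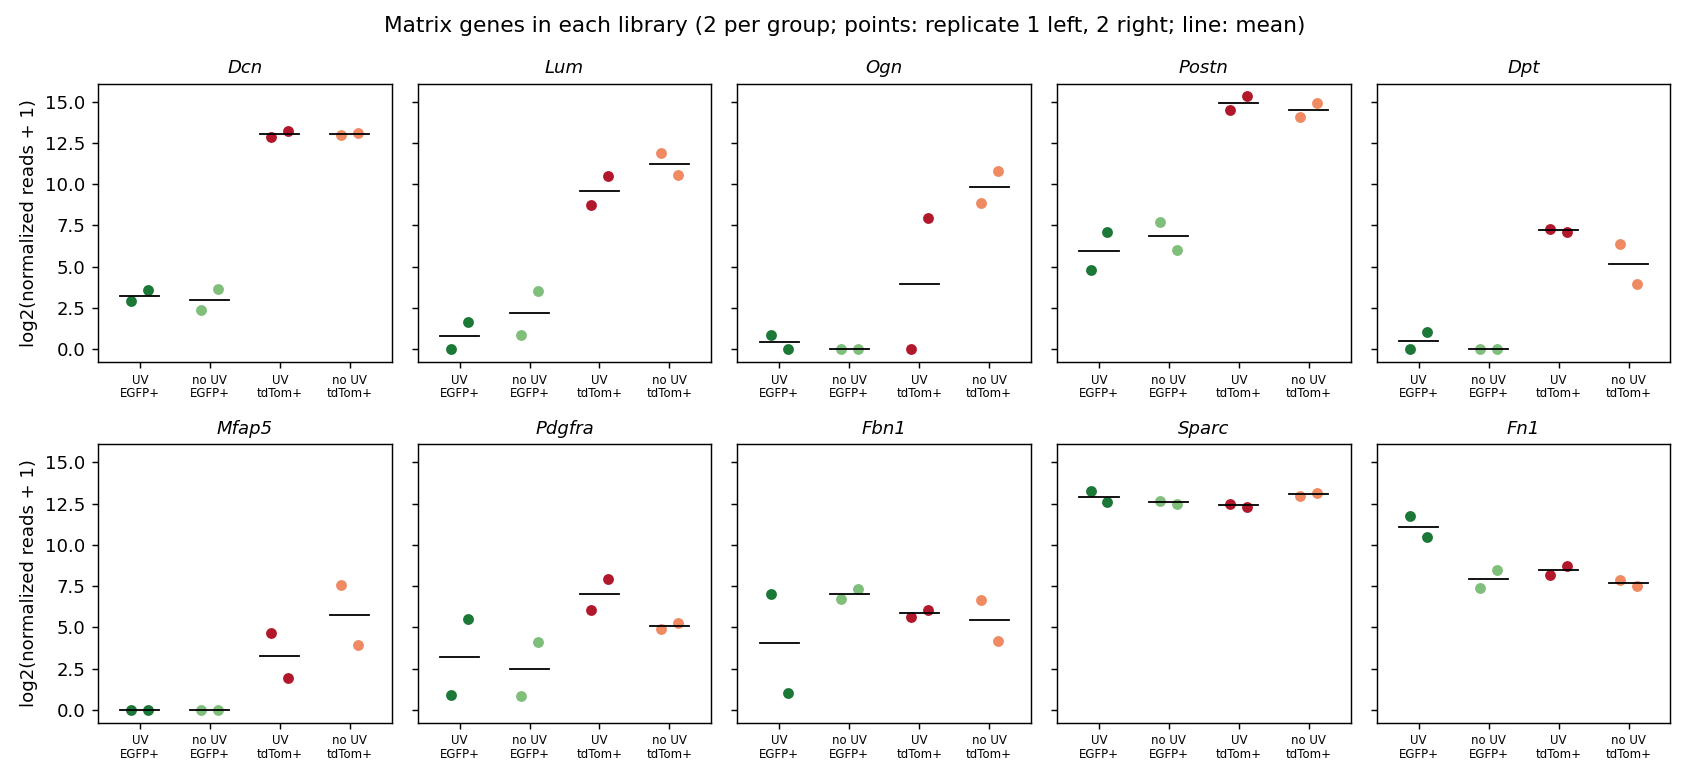
Value of each of the 10 genes in each of the 8 libraries, as log2(normalized reads + 1) on the y axis, with the 4 groups along the x axis (UV EGFP+, no UV EGFP+, UV tdTomato+, no UV tdTomato+; tdTom+ stands for tdTomato+). Points are libraries, replicate 1 on the left, and lines are means of 2; Dcn, Lum and Postn sit low in every EGFP+ library, Sparc lies at a like height in all 4 groups, and Fn1 is highest in the 2 UV EGFP+ libraries.

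RefSeq (GRCm38.p6) promoter windows, 250 bases before to 50 bases after a start site, were at hand for 6 of the 10 genes, and those of 5 genes are printed here so that genes far lower in EGFP+ cells (Ogn, Postn, Dpt) can be set beside genes whose difference did not pass the test (Sparc, Fbn1). Both strands were searched for 4 motifs, and capitals mark the matches. TATAAA is the core sequence of a TATA box. The E-box CATGTG can be bound by factors of the MITF family, and so can the palindromic E-box, spelled CACGTG. The GC box was searched as GGGCGG. The windows are chr13:49607765-49608064 on the plus strand for Ogn, chr3:54360857-54361156 on the plus strand for Postn, chr1:164796413-164796712 on the plus strand for Dpt, chr11:55420031-55420330 on the minus strand for Sparc and chr2:125506389-125506688 on the minus strand for Fbn1. Postn had 2 windows, and the other, chr3:54359017-54359316, held none of the motifs. The start sites used for Sparc and Fbn1 lie 3103 and 1555 bases inside the GENCODE M21 gene models, whereas those printed for Ogn, Postn and Dpt lie within 31 bases of the gene's start in that annotation.
Ogn: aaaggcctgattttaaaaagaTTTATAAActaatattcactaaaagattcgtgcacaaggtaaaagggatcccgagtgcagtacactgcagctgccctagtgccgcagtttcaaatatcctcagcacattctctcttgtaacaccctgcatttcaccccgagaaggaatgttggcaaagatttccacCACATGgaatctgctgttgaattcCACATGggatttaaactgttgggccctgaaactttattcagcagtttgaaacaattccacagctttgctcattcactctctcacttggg
Postn: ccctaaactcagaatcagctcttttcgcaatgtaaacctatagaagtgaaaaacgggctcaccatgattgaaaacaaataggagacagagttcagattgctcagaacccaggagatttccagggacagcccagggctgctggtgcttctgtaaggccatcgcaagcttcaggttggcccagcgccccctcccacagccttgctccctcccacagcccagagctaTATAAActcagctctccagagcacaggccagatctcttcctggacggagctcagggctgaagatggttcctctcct
Dpt: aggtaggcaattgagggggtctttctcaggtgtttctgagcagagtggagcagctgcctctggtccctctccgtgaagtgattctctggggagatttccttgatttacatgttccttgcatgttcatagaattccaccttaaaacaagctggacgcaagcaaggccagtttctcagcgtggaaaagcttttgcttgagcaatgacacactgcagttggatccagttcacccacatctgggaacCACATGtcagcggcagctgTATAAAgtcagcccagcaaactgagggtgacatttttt
Sparc: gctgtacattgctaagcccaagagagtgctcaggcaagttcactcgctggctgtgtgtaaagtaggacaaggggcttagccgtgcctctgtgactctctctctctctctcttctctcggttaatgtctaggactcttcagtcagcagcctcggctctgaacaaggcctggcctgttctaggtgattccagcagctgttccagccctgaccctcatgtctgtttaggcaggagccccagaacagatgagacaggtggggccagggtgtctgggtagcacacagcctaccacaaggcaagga
Fbn1: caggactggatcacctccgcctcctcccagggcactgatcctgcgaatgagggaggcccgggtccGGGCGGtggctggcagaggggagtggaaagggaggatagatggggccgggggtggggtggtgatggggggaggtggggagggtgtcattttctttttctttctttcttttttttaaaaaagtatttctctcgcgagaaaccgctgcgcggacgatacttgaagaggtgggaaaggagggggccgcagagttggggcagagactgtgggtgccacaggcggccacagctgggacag
The TATA motif lay 26 bases before the start in the printed Postn window. In the Ogn window it lay 227 bases before the start, where a match on the other strand begins 229 bases before the start and overlaps it. In the Dpt window it began at base 12 past the start. The first E-box matched the minus strand of the Ogn window at 2 places, 63 and 39 bases before the start, and that of the Dpt window at 1 place, 7 bases before it. The GC box occurred at 1 place in the Fbn1 window, 185 bases before the start. The Sparc window held none of the 4 motifs, and no printed window held the palindromic E-box. Of all 32851 promoter windows, 13.6% held the TATA motif, 14.2% the first E-box, 7.15% the palindromic E-box and 35.7% the GC box. The Fbn1 window had 14 CpG dinucleotides and the other windows of the set 4 or 5, against a median of 7 over all windows. These matches describe the letters only.

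Of the small leucine-rich proteoglycans, Dcn and Lum had the 2 largest differences of the set over all mice, while Ogn came after Postn. Dcn (chr10:97479609-97518143, plus strand, mm10) encodes decorin, which binds collagen fibrils and TGF-beta. It had 6.71 and 10.8 normalized reads in UV EGFP+ libraries and 4.16 and 11.4 in no UV EGFP+ libraries, against 7252 and 9350 in UV tdTomato+ libraries and 7967 and 8617 in no UV tdTomato+ libraries. Every EGFP+ library was below every tdTomato+ library, and the 4 tdTomato+ libraries lay close together whether or not the mouse had UVB. The difference was -9.89 ± 0.34 (limma adjusted p = 9.87e-07). Within single mice the EGFP+ value was 0.0926% and 0.115% of the tdTomato+ value in the UVB-treated mice 3 and 4, and 0.0522% and 0.132% in mock-treated mice 1 and 2. The summed keratinocyte markers of EGFP+ cells stood at 0.254%, 0.354%, 0.268% and 0.236% of the tdTomato+ sum in mice 3, 4, 1 and 2. Whether carry-over of other cells or their RNA in the sort makes up those few Dcn reads was not tested.

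Lum (chr10:97565128-97572703, plus strand) encodes lumican, a keratan sulphate proteoglycan that regulates the assembly of collagen fibrils, and lies 47.0 kb from Dcn. It had 0 and 2.16 normalized reads in UV EGFP+ libraries and 0.83 and 10.5 in no UV EGFP+ libraries, against 419 and 1430 in UV tdTomato+ libraries and 3804 and 1480 in no UV tdTomato+ libraries. The populations did not overlap, but the tdTomato+ libraries spread far more widely than they did for Dcn. The difference was -8.89 ± 0.79 (limma adjusted p = 9.39e-05). In UVB-treated mice alone it was -8.77 ± 1.12 (limma adjusted p = 0.0014), and there the call was lost without UV tdTomato+ replicate 2 (-7.88, adjusted p = 0.0507).

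Ogn (chr13:49608046-49624501, plus strand) encodes osteoglycin, also called mimecan, a further small leucine-rich proteoglycan. It had 0.84 and 0 normalized reads in UV EGFP+ libraries and 0 in both no UV EGFP+ libraries, against 0 and 244 in UV tdTomato+ libraries and 470 and 1756 in no UV tdTomato+ libraries. UV tdTomato+ replicate 1 thus had no Ogn read, at a depth of 16711981 reads, and overlapped the EGFP+ libraries. Summed over libraries, EGFP+ cells gave 1 Ogn read against 1974 from tdTomato+ cells, and the ratio after scaling was 2218 for tdTomato+ over EGFP+ (95% exact interval 398 to 87650, counting error only). The difference was -6.68 ± 1.58 over all mice (limma adjusted p = 0.0133). It lost the call without either no UV EGFP+ library (adjusted p = 0.0968 and 0.104 without replicates 1 and 2) or either no UV tdTomato+ library (0.0907 and 0.132). In UVB-treated mice the difference was -3.53 ± 2.23 (adjusted p = 0.333), and without UV tdTomato+ replicate 1 it was -7.50 (adjusted p = 0.0439), whereas without UV tdTomato+ replicate 2 it was 0.44.

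Of the 12 other small leucine-rich proteoglycan and related genes listed, 10 were tested over all mice, of which 7 were lower in EGFP+ cells and 1 was higher, with a median of -4.05 against -0.33 over all genes tested. Among the 7, Kera and Fmod passed the filter on low values through tdTomato+ libraries alone. Bgn, which encodes biglycan, the nearest relative of decorin, averaged 4.85 ± 5.28 normalized reads in EGFP+ libraries and 1702 ± 566 in tdTomato+ libraries (SD, n = 4 each), a difference of -8.54 ± 0.67 (limma adjusted p = 4.69e-05). Aspn (asporin) differed by -8.78 ± 0.78 (adjusted p = 9.35e-05) and Ecm2 by -4.71 ± 0.80 (adjusted p = 0.00276). The exception in size was Omd, which encodes osteomodulin and lies 15.2 kb from Ogn on chromosome 13. It averaged 720 ± 195 in EGFP+ libraries and 2807 ± 766 in tdTomato+ libraries (SD, n = 4 each), a difference of only -1.96 ± 0.20 (limma adjusted p = 0.00017). Prelp, which encodes a proteoglycan that anchors basement membranes to the tissue beneath, was the 1 gene higher in EGFP+ cells, at 749 ± 303 against 228 ± 54.6 in tdTomato+ cells (SD, n = 4 each; 1.63 ± 0.36, limma adjusted p = 0.00941). That call was lost without no UV EGFP+ replicate 2, either no UV tdTomato+ library or UV tdTomato+ replicate 1 (0.0778 to 0.0897).

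Dpt (chr1:164796644-164824266, plus strand) encodes dermatopontin, a small matrix protein that binds decorin and speeds collagen fibril formation. It had 0 and 1.08 normalized reads in UV EGFP+ libraries and 0 in both no UV EGFP+ libraries, against 154 and 139 in UV tdTomato+ libraries and 82.2 and 14.3 in no UV tdTomato+ libraries. The populations did not overlap, and both UV tdTomato+ libraries were above both no UV tdTomato+ libraries. EGFP+ cells gave 1 Dpt read against 412 from tdTomato+ cells, with a scaled ratio of 463 for tdTomato+ over EGFP+ (95% exact interval 82.6 to 18328). The difference was -5.92 ± 0.83 (limma adjusted p = 0.00105). In UVB-treated mice it was -6.68 ± 1.18 (adjusted p = 0.00617), and the call was lost without UV tdTomato+ replicate 1 (adjusted p = 0.0643) or replicate 2 (0.0541) and under quantile normalization (0.0793). In mock-treated mice it was -5.16 ± 1.18 (adjusted p = 0.0173), lost without no UV EGFP+ replicate 1 (0.0915) or replicate 2 (0.105) and under quantile normalization (0.102).

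The 2 microfibril genes parted. Mfap5 (chr6:122505845-122529290, plus strand) encodes MAGP-2, a small glycoprotein that binds fibrillins along the microfibril. It had 0 reads in all 4 EGFP+ libraries, against 23.8 and 2.78 normalized reads in UV tdTomato+ libraries and 190 and 14.3 in no UV tdTomato+ libraries. With 233 reads in tdTomato+ cells and a floor of 3 reads over the EGFP+ group, Mfap5 was at least 87.3-fold lower in EGFP+ cells. The limma difference was -4.52 ± 1.01 (adjusted p = 0.0104), and the call was lost without no UV EGFP+ replicate 1 (0.0693) or replicate 2 (0.0744), or without UV tdTomato+ replicate 1 (0.0651). The tdTomato+ libraries themselves spanned 2.78 to 190, and 194 of the 233 reads came from no UV tdTomato+ replicate 1. Without that library the bound was at least 19.8-fold.

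Fbn1 (chr2:125300594-125507993, minus strand) encodes fibrillin-1, the main building block of the microfibril. It had 130 and 1.08 normalized reads in UV EGFP+ libraries and 106 and 162 in no UV EGFP+ libraries, against 49.5 and 65.8 in UV tdTomato+ libraries and 102 and 17.1 in no UV tdTomato+ libraries. The other 3 EGFP+ libraries were above all 4 tdTomato+ libraries, and UV EGFP+ replicate 2 was below all of them. That is the library in which 238 genes expressed in the other EGFP+ libraries had 3 reads or fewer, and the part this plays in Fbn1 was not tested. The difference was -0.10 ± 1.22 (limma adjusted p = 0.961), with a 95% interval of -2.90 to 2.70. Without UV EGFP+ replicate 2 it was 1.39, and under quantile normalization, rescaling, edgeR and DESeq2 it was also above 0. In UVB-treated mice it was -1.82 ± 1.73 (adjusted p = 0.539), and without UV EGFP+ replicate 1 it was -4.81 (adjusted p = 0.0236), a value that rests on that same library.

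Of 17 other microfibril and elastic fibre genes, all tested, 11 were lower in EGFP+ cells and 2 higher (median -3.96). Of all genes tested, 19.2% were lower and 9.66% higher. Among the 11, Eln, Emilin2, Lox, Ltbp2 and Mfap4 passed the filter on low values through tdTomato+ libraries alone. Fbln1, which encodes the elastic fibre and basement membrane protein fibulin-1, averaged 12.8 ± 10.3 normalized reads in EGFP+ libraries and 1735 ± 317 in tdTomato+ libraries (SD, n = 4 each; -7.35 ± 0.41, limma adjusted p = 8.22e-06). Mfap2, the paralogue of Mfap5 whose product also binds fibrillins, differed by -7.10 ± 0.77 (adjusted p = 0.000258), and Ltbp4, which encodes a latent TGF-beta binding protein, by -3.28 ± 0.37 (adjusted p = 0.000309). The 2 higher genes both encode fibulins needed for elastic fibre assembly. Fbln5 averaged 1821 ± 216 in EGFP+ libraries and 586 ± 231 in tdTomato+ libraries (SD, n = 4 each; 1.75 ± 0.32, limma adjusted p = 0.00392), a call lost without no UV EGFP+ replicate 2 or either UV tdTomato+ library (up to 0.059). Efemp2, which encodes fibulin-4, averaged 931 ± 181 in EGFP+ libraries and 420 ± 320 in tdTomato+ libraries (1.53 ± 0.21, adjusted p = 0.000933).

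The 2 matricellular genes also parted. Postn (chr3:54361109-54391037, plus strand) encodes periostin, which binds integrins and collagen and is made by fibroblasts of the dermis and of healing wounds. It had 26.8 and 137 normalized reads in UV EGFP+ libraries and 204 and 62.8 in no UV EGFP+ libraries, against 23316 and 40921 in UV tdTomato+ libraries and 17071 and 31475 in no UV tdTomato+ libraries. The populations were far apart, and the 2 UV arms overlapped within each. The difference was -8.31 ± 0.55 (limma adjusted p = 1.89e-05). Within mice the EGFP+ value was 0.115% and 0.334% of the tdTomato+ value in UVB-treated mice 3 and 4 and 1.19% and 0.199% in mock-treated mice 1 and 2.

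Sparc (chr11:55394500-55423183, minus strand) encodes osteonectin, a collagen-binding and calcium-binding glycoprotein. It had 10008 and 6070 normalized reads in UV EGFP+ libraries and 6565 and 5624 in no UV EGFP+ libraries, against 5639 and 5122 in UV tdTomato+ libraries and 8051 and 9173 in no UV tdTomato+ libraries. The populations overlapped fully, with a difference of 0.02 ± 0.17 (limma adjusted p = 0.947) and a 95% interval of -0.36 to 0.40. The arms pointed in opposite directions without passing the test, with 0.54 ± 0.23 in UVB-treated mice (adjusted p = 0.161) and -0.50 ± 0.23 in mock-treated mice (adjusted p = 0.19). Without UV EGFP+ replicate 2 the value in UVB-treated mice was 0.90 (adjusted p = 0.0294). EGFP+ cells held 177% and 119% of the tdTomato+ value in mice 3 and 4, and 81.5% and 61.3% in mice 1 and 2.

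Of 16 other matricellular genes tested, 9 were lower in EGFP+ cells and 1 higher (median -3.15). Among the 9, Smoc1 passed the filter on low values through tdTomato+ libraries alone. Tgfbi, which encodes a TGF-beta-induced adhesion protein of the same family as periostin, averaged 11.3 ± 7.22 normalized reads in EGFP+ libraries and 3803 ± 774 in tdTomato+ libraries (SD, n = 4 each; -8.42 ± 0.43, limma adjusted p = 4.70e-06). Thbs1 (thrombospondin-1) differed by -7.70 ± 0.39 (adjusted p = 4.86e-06), Smoc2, a relative of Sparc, by -5.42 ± 0.41 (adjusted p = 3.75e-05) and Tnc (tenascin-C) by -4.86 ± 0.63 (adjusted p = 0.000649). The 1 higher gene was Sparcl1, the closest relative of Sparc, at 705 ± 190 in EGFP+ libraries and 273 ± 163 in tdTomato+ libraries (SD, n = 4 each; 1.58 ± 0.50, limma adjusted p = 0.0453), a call lost in 9 of 16 alternatives (up to 0.228), 7 of them fits without 1 library.

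Fn1 (chr1:71585520-71653200, minus strand) encodes fibronectin. It had 3389 and 1430 normalized reads in UV EGFP+ libraries and 168 and 350 in no UV EGFP+ libraries, against 293 and 417 in UV tdTomato+ libraries and 236 and 178 in no UV tdTomato+ libraries. Both UV EGFP+ libraries were above all 6 others, while no UV EGFP+ and tdTomato+ libraries overlapped. EGFP+ cells held 1156% and 343% of the tdTomato+ value in mice 3 and 4, and 71.3% and 196% in mice 1 and 2. The difference over all mice was 1.45 ± 0.35 (limma adjusted p = 0.0157). It was 2.65 ± 0.50 in UVB-treated mice (adjusted p = 0.00835) and 0.24 ± 0.50 in mock-treated mice (adjusted p = 0.782). The difference over all mice lost the call without no UV EGFP+ replicate 2 (adjusted p = 0.105), no UV tdTomato+ replicate 1 (0.089) or 2 (0.129), or UV tdTomato+ replicate 1 (0.117) or 2 (0.074). The difference in UVB-treated mice lost it without no UV tdTomato+ replicate 1 (0.0667) or 2 (0.0665), or UV tdTomato+ replicate 1 (0.136) or 2 (0.0794).

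Of 10 fibronectin-binding integrin subunits, syndecan and crosslinking enzyme genes tested, 4 were lower in EGFP+ cells and 1 higher (median -1.17). Itgb1, which encodes the beta subunit shared by the main fibronectin receptor, averaged 5248 ± 983 normalized reads in EGFP+ libraries and 3368 ± 697 in tdTomato+ libraries (SD, n = 4 each; 0.64 ± 0.13, limma adjusted p = 0.00557). Sdc4, which encodes the heparan sulphate co-receptor syndecan-4, averaged 526 ± 219 in EGFP+ libraries and 7413 ± 1081 in tdTomato+ libraries (-3.92 ± 0.22, adjusted p = 7.50e-06). Itgb6, an epithelial integrin subunit, differed by -7.67 ± 0.81 (adjusted p = 0.000227) and Itga8 by -4.38 ± 0.75 (adjusted p = 0.0028). Itga8 gave 2 reads from EGFP+ against 114 from tdTomato+ cells and passed the filter on low values through tdTomato+ libraries alone. Its scaled ratio was 64.0 for tdTomato+ over EGFP+ (95% exact interval 17.3 to 535).

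Pdgfra (chr5:75152292-75198215, plus strand) encodes the receptor for PDGF-A and other PDGF chains. It had 0.84 and 45.3 normalized reads in UV EGFP+ libraries and 0.83 and 16.2 in no UV EGFP+ libraries, against 66.0 and 242 in UV tdTomato+ libraries and 28.4 and 37.1 in no UV tdTomato+ libraries. Replicate 2 was the higher EGFP+ library in both arms, and UV EGFP+ replicate 2 was above both no UV tdTomato+ libraries. The difference was -3.18 ± 1.21 (limma adjusted p = 0.0837), and with mouse as a replicate block it passed (adjusted p = 0.039). It also passed without UV EGFP+ replicate 2 (-4.35, adjusted p = 0.022). Within mice, EGFP+ cells held 1.27% and 18.7% of the tdTomato+ value in mice 3 and 4 and 2.93% and 43.6% in mice 1 and 2, so in each mouse the EGFP+ value was the lower.

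Of 5 genes for PDGF ligands and the other PDGF receptor, all tested, 4 were lower in EGFP+ cells (median -5.54). Pdgfb differed by -7.20 ± 0.73 (adjusted p = 0.00018), Pdgfc by -6.24 ± 0.72 (adjusted p = 0.000346), Pdgfrb by -5.54 ± 0.89 (adjusted p = 0.00209) and Pdgfa by -2.47 ± 0.28 (adjusted p = 0.000346). EGFP+ and tdTomato+ cells gave 2 and 744 reads of Pdgfb, 3 and 512 of Pdgfc, and 1 and 289 of Pdgfrb. Pdgfb and Pdgfrb passed the filter on low values through tdTomato+ libraries alone. The scaled ratio of tdTomato+ over EGFP+ was 418 for Pdgfb (95% exact interval 115 to 3458) and 325 for Pdgfrb (57.8 to 12870). Pdgfa, which encodes the main ligand chain of the alpha receptor, averaged 112 ± 32.7 normalized reads in EGFP+ cells and 690 ± 384 in tdTomato+ cells (SD, n = 4 each). Of 6 TGF-beta ligand and receptor genes, 3 were lower and 1, Tgfb2, was higher in EGFP+ cells, at 393 ± 188 against 96.1 ± 36.1 in tdTomato+ cells (SD, n = 4 each; 1.91 ± 0.45, limma adjusted p = 0.0128), a call lost without any 1 of the no UV or tdTomato+ libraries (0.0639 to 0.104).

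Collagen genes, whose products most of these proteins bind, followed the larger part of the set. Of 10 fibrillar and associated collagen genes tested, 6 were lower and 1 higher in EGFP+ cells (median -4.46). Col1a1 averaged 6.63 ± 9.54 normalized reads in EGFP+ libraries and 771 ± 780 in tdTomato+ libraries (SD, n = 4 each; -6.38 ± 0.64, limma adjusted p = 0.000176), and Col3a1 differed by -6.18 ± 0.68 (adjusted p = 0.000286). Col12a1, which encodes a fibril-associated collagen, was the higher one, at 1729 ± 209 in EGFP+ libraries and 312 ± 264 in tdTomato+ libraries (2.82 ± 0.30, adjusted p = 0.000217). Of the 17 fibroblast markers, 14 were lower and 1 higher (median -5.52). Among the 14, Dpp4, Pi16, Thy1 and Twist2 passed the filter on low values through tdTomato+ libraries alone. Twist2 gave 0 reads from EGFP+ against 215 from tdTomato+ cells, at least 80.5-fold lower with a floor of 3 reads over the group, and Thy1 gave 1 read from EGFP+ against 718 from tdTomato+ cells. The higher marker was Pdpn (podoplanin), which keratinocytes and lymphatic endothelium also make, at 781 ± 314 in EGFP+ libraries against 177 ± 165 in tdTomato+ libraries (3.13 ± 0.83, adjusted p = 0.0223), a call lost in 6 of the 8 fits without 1 library (0.0587 to 0.155).

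**Figure D2:**
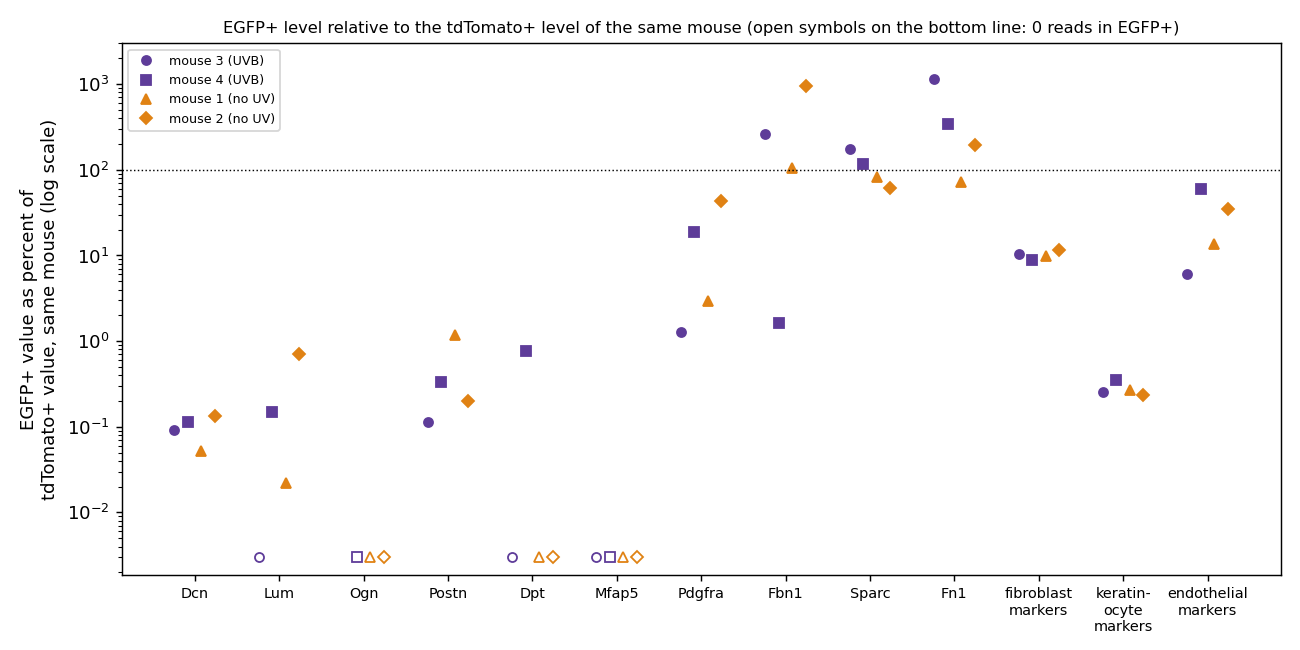
EGFP+ value of each gene as a percent of the tdTomato+ value of the same mouse, on a log y axis, with the 10 genes and the summed fibroblast, keratinocyte and endothelial markers along the x axis. Pdpn alone makes up most of the EGFP+ fibroblast marker sum in every mouse but mouse 4. Symbols are mice (purple for UVB, orange for no UV), open symbols on the bottom line are mice with 0 EGFP+ reads, mouse 3 has no Ogn point because its tdTomato+ value is 0, and the dotted line is 100%; Dcn lies between 0.0522% and 0.132%, and Fn1 between 71.3% and 1156%.

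Taken by arm, 4 genes (Dcn, Lum, Postn and Dpt) were lower in EGFP+ cells of UVB-treated mice and Fn1 was higher by limma, against 17.9% of all genes called, 5.03% as higher and 12.9% as lower. With the 4 libraries of those mice fitted alone, 1 of the 10 genes, Dcn, was called. In that arm edgeR also called Ogn (-7.66, adjusted p = 0.0118) and DESeq2 also called Mfap5 (-6.25, adjusted p = 0.0329). In mock-treated mice 6 genes (Dcn, Lum, Ogn, Postn, Dpt and Mfap5) were lower in EGFP+ cells and 0 were higher by limma, with the same counts by edgeR, by DESeq2 and at an unadjusted limma p under 0.05. The share of all genes called there was 19.2%, with 6.67% higher and 12.5% lower, and 5630 of 18070 had an unadjusted limma p under 0.05. With the 4 libraries of the mock-treated mice fitted alone, Dpt (adjusted p = 0.0678) and Mfap5 (0.0967) lost the call. The arms share no library, and a gene called in 1 arm alone is not thereby shown to differ between them: the test of that difference is the interaction given below. For Mfap5 the difference was -3.28 ± 1.43 with UVB (limma adjusted p = 0.16) and -5.75 ± 1.43 without UV (adjusted p = 0.0243). Mfap5 without UV lost the call without 5 of the 8 libraries, both no UV EGFP+ libraries (0.151 and 0.169), no UV tdTomato+ replicate 1 (0.105) and both UV tdTomato+ libraries (0.0513 and 0.0541). Ogn without UV was -9.83 ± 2.23 (adjusted p = 0.0166), lost without any 1 of the no UV libraries (0.12 to 0.208).

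**Figure D3:**
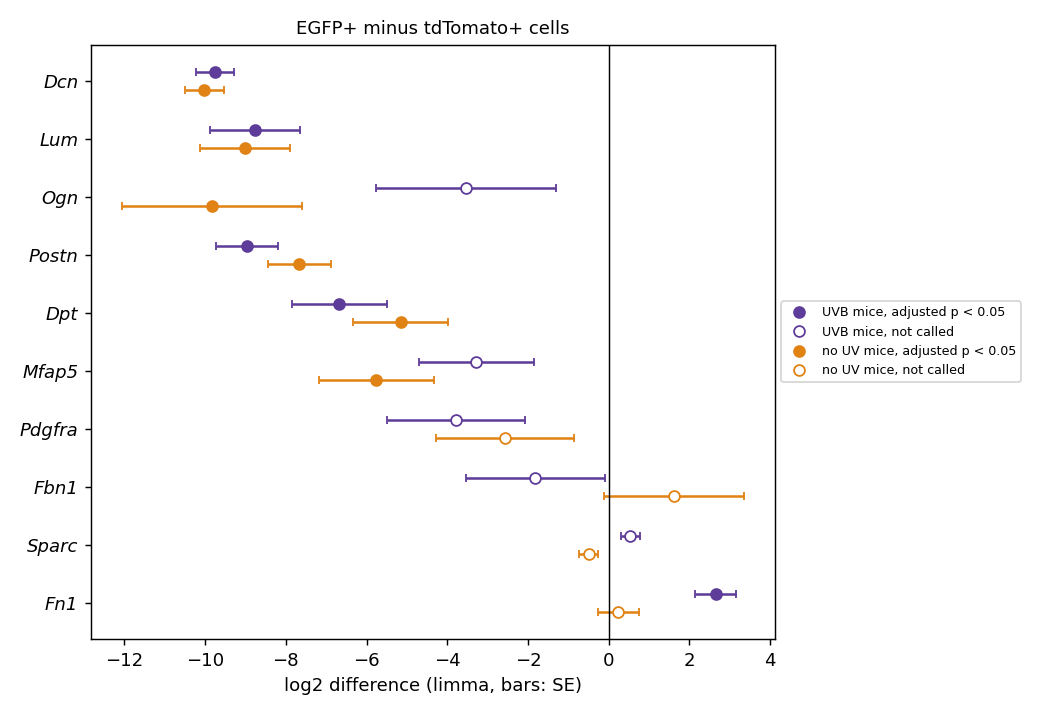
Limma log2 difference of EGFP+ minus tdTomato+ cells (x axis) for each gene (y axis), with standard errors as bars, in UVB-treated mice (purple, upper) and mock-treated mice (orange, lower); filled points passed an adjusted p of 0.05. Dcn stands at -9.76 and -10.02, Fn1 is filled only for UVB at 2.65, and Ogn has the widest gap between arms, -3.53 and -9.83.

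Per length, the genes ranked differently in the cell populations. Normalized reads were divided by the length of the longest protein-coding transcript in GENCODE M21, in kb. In EGFP+ cells Sparc led with 3072 ± 869 per kb, then Fn1 with 160 ± 178, Postn with 33.6 ± 24.6, Fbn1 with 8.34 ± 5.81 and Dcn with 4.70 ± 1.96 (SD, n = 4). In tdTomato+ cells Postn led with 8797 ± 3224 per kb, then Dcn with 4719 ± 510, Sparc with 3042 ± 840, Lum with 728 ± 585 and Ogn with 241 ± 305 (SD, n = 4). The tdTomato+ order ended with Dpt at 56.5, Mfap5 at 38.3, Fn1 at 33.8, Pdgfra at 13.7 and Fbn1 at 4.89 per kb. In tdTomato+ libraries Postn was above Dcn in all 4 and Dcn above Sparc in all 4. Sparc was above Lum in all 4, and so was Fn1 above Pdgfra, although their ranges overlapped. The other neighbouring pairs from Lum downwards changed order in at least 1 library. In EGFP+ libraries Sparc was above all other members in every library, and Fn1, Postn, Fbn1 and Dcn each overlapped with the next.

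With UVB, 0 of the 10 genes passed limma's threshold in EGFP+ cells, 1 had an unadjusted p under 0.05, and edgeR and DESeq2 on whole reads each called 1, Fn1. Over all genes 0.0166% were called by limma (3 of 18070, with 1875 at an unadjusted p under 0.05). Fn1, with 3389 and 1430 normalized reads in UV EGFP+ libraries against 168 and 350 in no UV EGFP+ libraries, differed by 3.18 ± 0.50 with a 95% interval of 2.03 to 4.32 (limma adjusted p = 0.101). By edgeR the Fn1 difference was 3.19 (adjusted p = 0.00426) and by DESeq2 3.22 (adjusted p = 3.56e-07). Over the alternatives the adjusted p ran up to 0.477, with the 4 EGFP+ libraries alone, and without UV EGFP+ replicate 1 the difference was 2.56 (limma adjusted p = 0.0323). Fbn1 differed by -3.00 ± 1.73 (adjusted p = 0.582), and without UV EGFP+ replicate 1 by -5.99 (adjusted p = 0.0271), which again leaves UV EGFP+ replicate 2 as the only UV library. Sparc differed by 0.36 ± 0.23 (adjusted p = 0.628) and Postn by -0.88 ± 0.78 (adjusted p = 0.725). Dcn, Lum, Ogn, Dpt and Mfap5, all at 11.4 normalized reads or fewer in every EGFP+ library, showed no UVB change detectable at that depth.

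In tdTomato+ cells 0 of the 10 genes passed after UVB by limma, edgeR or DESeq2, and 2 had an unadjusted p under 0.05, Sparc and Ogn. Over all genes 0.559% were called by limma (101 of 18070, with 2429 at an unadjusted p under 0.05). Dcn averaged 8301 ± 1484 normalized reads in UV tdTomato+ libraries and 8292 ± 460 in no UV tdTomato+ libraries (SD, n = 2 each), a difference of -0.01 ± 0.48 with a 95% interval of -1.10 to 1.08. Sparc averaged 5381 ± 365 in UV tdTomato+ libraries and 8612 ± 794 in no UV tdTomato+ libraries (SD, n = 2 each), without overlap, a difference of -0.68 ± 0.23 (limma adjusted p = 0.264). Ogn differed by -5.86 ± 2.23 (limma adjusted p = 0.307), and without UV tdTomato+ replicate 1, the library at 0, by -1.89. Dpt, 154 and 139 in UV tdTomato+ libraries against 82.2 and 14.3 in no UV tdTomato+ libraries, differed by 2.05 ± 1.18 (limma adjusted p = 0.519). The intervals of Postn (-1.36 to 2.19), Fn1 (-0.38 to 1.91), Lum (-4.18 to 0.95), Mfap5 (-5.75 to 0.79), Pdgfra (-1.97 to 5.84) and Fbn1 (-3.53 to 4.39) all held 0 and were wide.

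The tdTomato+ libraries also differed between arms in the values of cell type markers. Their melanocyte markers were 4.11% and 7.22% of the EGFP+ sum in UVB-treated mice 3 and 4 and 1.06% and 0.448% in mice 1 and 2. By limma, 5 of the 8 markers were called higher after UVB in tdTomato+ cells. Those 5 calls were lost with the 4 tdTomato+ libraries fitted alone, where 0 of all genes were called. Their fibroblast markers summed to 10304 and 10317 in UV tdTomato+ libraries and 13329 and 9938 in no UV tdTomato+ libraries, so those ranges overlapped. Ly6a alone made up 6445 and 4575 of that sum in UV tdTomato+ libraries and 4796 and 2940 in no UV tdTomato+ libraries. The collagen genes of that marker list, and Thy1, were lower in both UV tdTomato+ libraries without overlap, though uncalled. Col1a2 had 139 and 400 in UV tdTomato+ libraries against 2342 and 2515 in no UV tdTomato+ libraries. Col3a1 had 313 and 247 in UV tdTomato+ libraries against 1870 and 592 in no UV tdTomato+ libraries. Serping1, Dpp4, Pi16 and Pdpn of the same list were higher in both UV tdTomato+ libraries without overlap, also uncalled. Serping1 had 1326 and 1795 in UV tdTomato+ libraries against 930 and 307 in no UV tdTomato+ libraries. Over the 17 fibroblast markers the median UVB change in tdTomato+ cells was 0.25. Keratinocyte markers summed to 282115 and 254168 in UV tdTomato+ libraries and 286149 and 368279 in no UV tdTomato+ libraries. Of the 10, Krt1 and Krt10, the keratins of differentiating epidermis, were called lower with UVB. Krt1 had 54.1 and 16.7 normalized reads in UV tdTomato+ libraries against 5874 and 10598 in no UV tdTomato+ libraries (-7.98 ± 0.80, limma adjusted p = 0.0133), and Krt10 had 673 and 351 in UV tdTomato+ libraries against 12359 and 18394 in no UV tdTomato+ libraries (-4.95 ± 0.37, adjusted p = 0.0101). Their leukocyte markers summed to 1879 and 809 in UV tdTomato+ libraries and 8484 and 1801 in no UV tdTomato+ libraries. Cd74 alone made up 763 and 527 of that sum in UV tdTomato+ libraries and 6548 and 1323 in no UV tdTomato+ libraries. Cd68 went the other way without overlap, with 651 and 226 in UV tdTomato+ libraries against 197 and 78.5 in no UV tdTomato+ libraries. The median UVB change of the 8 leukocyte markers tested in tdTomato+ cells was 0.41. Of these markers, Cd207, which encodes langerin of Langerhans cells, was called lower (limma adjusted p = 0.0211). It had 0 reads in both UV tdTomato+ libraries against 1237 and 271 normalized reads in no UV tdTomato+ libraries. It passed the filter on low values through no UV tdTomato+ libraries alone, the group where it was high. Krt1, Krt10 and Cd207 lost the call with the 4 tdTomato+ libraries fitted alone (adjusted p = 0.214 each) and without either UV tdTomato+ library (0.111 to 0.158). Whether cell numbers or RNA per cell shifted cannot be told from these bulk libraries. The part of these marker shifts in any member's value was not tested.

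The difference between the UVB changes, EGFP+ minus tdTomato+, passed limma's threshold for 0 of the 10 genes, while 2 had an unadjusted p under 0.05, DESeq2 called 1 (Fn1) and edgeR 0. Over all genes 0.00553% were called by limma (1 of 18070, with 1814 at an unadjusted p under 0.05). For Fn1 it was 2.41 ± 0.71 with a 95% interval of 0.79 to 4.03 (limma adjusted p = 0.356), and by DESeq2 2.44 (adjusted p = 0.0382). For Sparc it was 1.04 ± 0.33 with an interval of 0.28 to 1.79 (limma adjusted p = 0.385). Sparc was higher with UVB in EGFP+ means and lower with UVB in tdTomato+ means. For Ogn it was 6.30 ± 3.15 (adjusted p = 0.549), with 1 UV tdTomato+ library at 0.

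**Figure D4:**
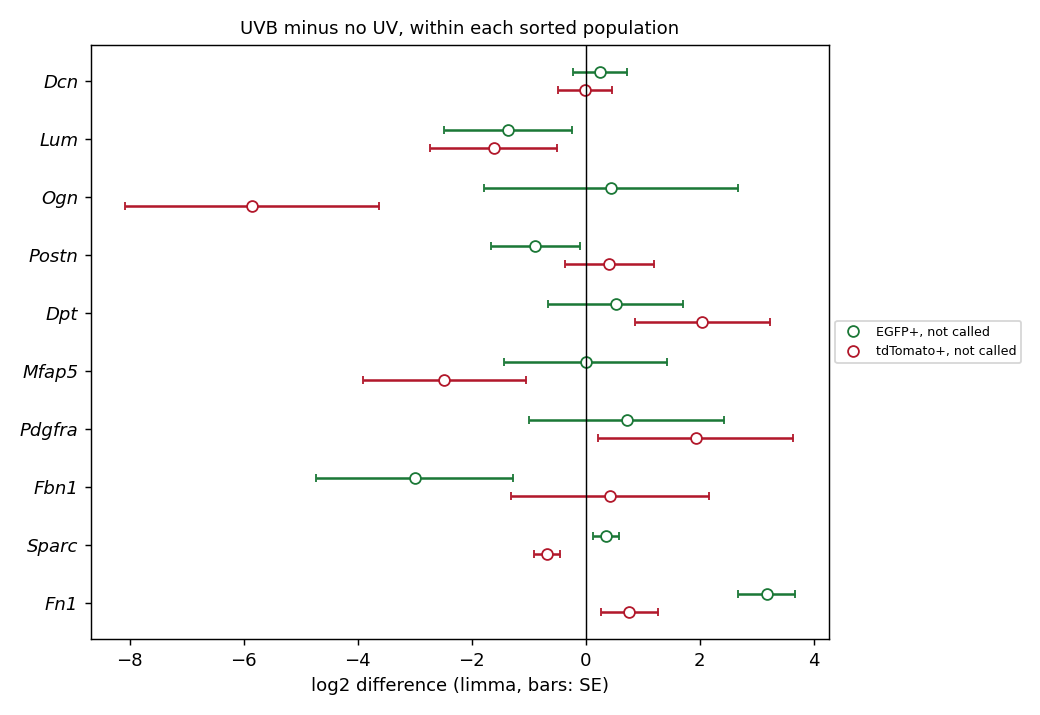
Limma log2 difference of UVB minus no UV (x axis) for each gene (y axis), with standard errors as bars, in EGFP+ cells (green, upper) and tdTomato+ cells (red, lower). All points are open because no gene passed an adjusted p of 0.05; Fn1 in EGFP+ cells stands at 3.18 and Ogn in tdTomato+ cells at -5.86, and Dcn lies at 0.25 and -0.01.

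Among the companion lists, UVB gave few calls. In EGFP+ cells Col6a1, which encodes a chain of the microfibrillar collagen VI, was called lower, with 0.84 and 0 normalized reads in UV EGFP+ libraries against 99.8 and 104 in no UV EGFP+ libraries (-6.24 ± 0.63, limma adjusted p = 0.0375). That call was lost in 11 of 17 alternatives, among them quantile normalization (0.065), the 4 EGFP+ libraries fitted alone (0.428) and 7 of the 8 fits without 1 library (0.0503 to 0.449). No other gene of the matrix, receptor and ligand lists was called there by limma. Smoc2 differed there by -4.09 ± 0.58 (adjusted p = 0.079), Tnc by -4.66 ± 0.89 (adjusted p = 0.15), Efemp1 by -4.19 ± 0.79 (adjusted p = 0.15) and Itgb3, a fibronectin and vitronectin receptor subunit, by -4.62 ± 1.20 (adjusted p = 0.272). In tdTomato+ cells Efemp2 was called higher, with 659 and 732 normalized reads in UV tdTomato+ libraries against 138 and 150 in no UV tdTomato+ libraries (2.26 ± 0.30, limma adjusted p = 0.0265). The call was lost with the 4 tdTomato+ libraries fitted alone (0.214) and in 7 of the 8 fits without 1 library (0.0519 to 0.164). Col1a1 had 87.0 and 104 in UV tdTomato+ libraries against 1418 and 1474 in no UV tdTomato+ libraries, without overlap (-3.91 ± 0.91, adjusted p = 0.119).

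Among the proteoglycan genes, some varied widely between tdTomato+ libraries and others did not. The replicate gap of Dcn was 0.37 on the log2 scale in UV tdTomato+ cells and 0.11 in no UV tdTomato+ cells, against medians of 0.27 and 0.37 over genes with a group mean of at least 50. For Ogn the gap was 7.94 in UV tdTomato+ cells, and 0.0474% of 10553 such genes were at least as far apart. Kera, which encodes the lumican relative keratocan and lies 34.2 kb from Lum, was also at 0 in UV tdTomato+ replicate 1, with 313 normalized reads in UV tdTomato+ replicate 2 and 149 and 936 in no UV tdTomato+ libraries. Fmod (fibromodulin) had 11.9 and 55.6 in UV tdTomato+ libraries and 63.6 and 838 in no UV tdTomato+ libraries, so UV tdTomato+ replicate 1 was lowest and no UV tdTomato+ replicate 2 highest for Ogn, Fmod and Aspn alike, and for Kera. Bgn, at 1276 and 1928 in UV tdTomato+ libraries and 2396 and 1206 in no UV tdTomato+ libraries, and Prelp, at 170 and 292 in UV tdTomato+ libraries and 200 and 253 in no UV tdTomato+ libraries, varied far less. Omd, the neighbour of Ogn, was highest in UV tdTomato+ replicate 1, at 3929, against 2657 in UV tdTomato+ replicate 2 and 2283 and 2358 in no UV tdTomato+ libraries.

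**Figure D5:**
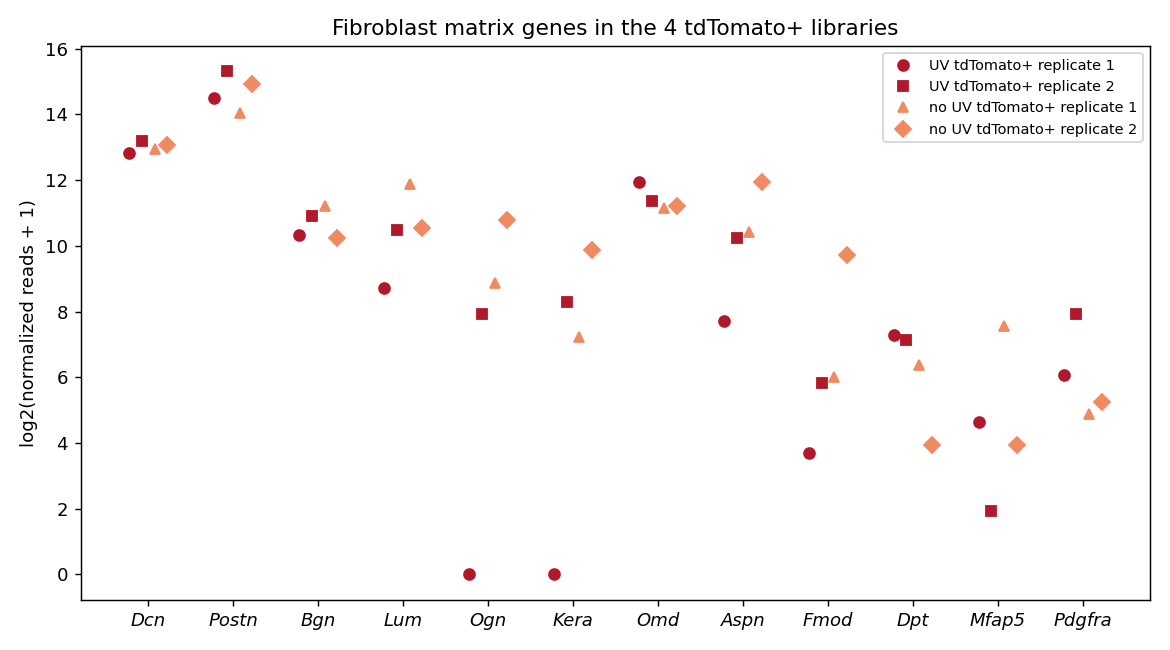
Value of members of the set and other matrix genes in the 4 tdTomato+ libraries, as log2(normalized reads + 1) on the y axis, with genes along the x axis and a symbol for each library (dark red for UV, orange for no UV). Which cells of the tdTomato+ population gave these reads was not tested. Dcn, Postn and Omd lie closer together than the proteoglycan genes Ogn and Kera, which sit at 0 in UV tdTomato+ replicate 1 and reach their highest values in no UV tdTomato+ replicate 2.

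The genes whose profile over the 8 libraries came closest to a member were listed by the root mean square gap between centred log2 profiles, among 11343 candidates. For Ogn these were Tnmd, which encodes the tendon protein tenomodulin (0.84), and Kera (0.86), and Tnmd was likewise at 0 in UV tdTomato+ replicate 1. For Fbn1 they were Mapk12 (0.36) and Fes (0.46), both at 0 in UV EGFP+ replicate 2, where Fbn1 had 1 read. For Fn1 the closest was Cox6b2 (0.58). It had 652 and 525 normalized reads in UV EGFP+ libraries and 96.5 and 130 in no UV EGFP+ libraries, against 156 and 225 in UV tdTomato+ libraries and 140 and 138 in no UV tdTomato+ libraries. For Dcn they were Igfl3 (0.37) and Cldn4 (0.40), where Cldn4 is an epithelial tight junction gene, for Postn Clu (0.59) and Spint1 (0.61), for Lum Tmem45a (0.83) and Gata3 (0.85), and for Dpt Cpa4 (0.48) and Galnt14 (0.51). For Mfap5 the closest was Akr1c14 (0.62). The closest were for Sparc Rfxank and Cited2 (0.14 and 0.15) and for Pdgfra Il4ra and Raver2 (1.12 and 1.13). The closest pair within the set was Dcn and Lum (1.16). These likenesses describe 8 libraries that fall into 2 sorted populations, and carry no test.

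The authors' deposited table gives its own comparison of EGFP+ over tdTomato+ cells over all libraries. In the authors' deposited table Dcn stands at -9.93 ± 0.33 (log2 ± SE, adjusted p = 2.26e-190), Fn1 at 2.17 ± 0.72 (adjusted p = 0.0102), Pdgfra at -2.38 ± 1.05 (adjusted p = 0.0628) and Sparc at 0.01 ± 0.30 (adjusted p = 0.979). The same 7 genes had an adjusted p under 0.05 in the authors' deposited table and in the limma fit over all mice.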

How the data were processed

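RNA from EGFP+ and tdTomato+ cells of 4 mice was made into 8 poly(A)-selected libraries with an unstranded kit, per the labels' protocols. The submitters' processing notes name mm10, DESeq2 1.14.1, Cufflinks 2.2.1, TopHat2 2.0.12 and FastQC. How reads were counted per gene is not given in the sources used here. Per the file headers, the deposited signal values are normalized reads. They are whole reads divided by a size factor for each library: 195368 of 195368 values came within 0.01 of a whole read (100%). The deposited log2 fold changes, score and p-value columns of the authors were read only for the values credited to them.

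Here limma 3.58.1 (R 4.3.3) was run on log2(value + 1), with a mean for each of the 4 groups, moderation with a trend, 4 residual degrees of freedom (median 8.4 after moderation), a filter that kept 18070 genes (mean of 1 or more in any group), and Benjamini-Hochberg adjustment over all of them. Recovered reads went to edgeR 4.0.16 and DESeq2 1.42.0 as alternatives. With 2 mice against 2, the smallest p of an exact permutation test is 0.333. The spread behind the limma p-values was pooled over the 4 groups of 2 libraries and moderated across genes. A p-value for 1 comparison thus also rests on libraries outside it. The main fit took the EGFP+ and tdTomato+ libraries of a mouse as independent. The fit was also run on simulated reads with known changes, the same dispersion for every gene and no pairing by mouse. Real spread differed between genes, so that run does not vouch for the calls here. Intervals on reads are 95% exact and cover counting error only.

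Read totals were 16162492 and 13288698 (UV EGFP+), 16200359 and 13545505 (no UV EGFP+), 16711981 and 16543913 (UV tdTomato+) and 15692661 and 11186363 (no UV tdTomato+). EGFP+ and tdTomato+ libraries of a mouse pair by animal, per the labels; their deviations from group means correlated at 0.107 (mice 3 and 4) and 0.258 (mice 1 and 2) over 8450 genes. The members and gene lists were chosen with earlier results of these data known. Other genes were named by rule: up to 4 per list with the smallest p in the comparison, and every gene called against most of its list. The 2 genes nearest each member in profile were named too (for Fn1 and Mfap5 the nearest alone is reported here). Thy1, Twist2, Kera, Fmod, Omd, Aspn, Col1a1, Col1a2, Col3a1, Ly6a, Krt1, Krt10 and Cd207 were also named after their values were seen. So were Serping1, Dpp4, Pi16, Cd68, Cd74, Eln, Emilin2, Lox, Ltbp2, Mfap4 and Smoc1. Positions are from GENCODE M21 (GRCm38, the assembly of mm10) and promoters from RefSeq (GRCm38.p6).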

Additional observations from a re-analysis of the deposited data

How the results depend on the processing

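The 18 called population differences of the set were refitted in 299 settings in all: 0 reversed and 38 lost the call. Across fits without 1 library each, the members called ranged from 4 to 8 over all mice, 2 to 6 with UVB, 3 to 6 without UV, 0 to 2 for UVB in EGFP+ cells, and 0 to 0 both for UVB in tdTomato+ cells and for the difference of the UVB changes. All genes called ranged in the same order from 3448 to 6402, 958 to 4737, 1370 to 4300, 0 to 1460, 0 to 1226 and 0 to 779. Relative to the scaling used, quantile normalization moved the median of all genes in EGFP+ against tdTomato+ by 0.37 over all mice, 0.30 with UVB and 0.36 without UV, and rescaling without the 20 most abundant genes by 0.25, 0.21 and 0.30. The causes were not tested.

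With only the libraries compared in the fit, EGFP+ against tdTomato+ with UVB called 1 member and 1074 of all genes (3240 otherwise), and UVB called 0 genes in EGFP+ and 0 in tdTomato+ cells. For UVB in EGFP+ cells (3 genes, 0 members) quantile normalization gave 0 genes, a pseudocount of 0.1 gave 1, edgeR 120 with 1 member and DESeq2 355 with 1 member. For UVB in tdTomato+ cells (101 genes) a pseudocount of 0.1 gave 29, edgeR 240 and DESeq2 617. For the difference of the UVB changes (1 gene) quantile normalization gave 4, rescaling 2, a pseudocount of 0.1 gave 0, no filter 0, edgeR 75, and DESeq2 286 with 1 member.

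Values that changed sign were all uncalled. Fbn1 over all mice was 1.54 by quantile normalization, 0.15 rescaled, 0.73 by edgeR and 0.68 by DESeq2. Fbn1 with UVB was 0.60 by quantile normalization, 0.24 by edgeR and 0.19 by DESeq2, and its UVB change in tdTomato+ cells -0.0596 by edgeR and -0.0476 by DESeq2. The UVB change of Dcn in tdTomato+ cells was 0.0034 rescaled and 0.0016 by DESeq2. The difference of the UVB changes was -1.11 for Lum with a pseudocount of 0.1, -0.88 by edgeR and -0.96 by DESeq2, and 0.76 for Dpt by edgeR. Without 1 library each, the lowest and highest log2 differences of those that changed sign were, over all mice, Fbn1 -1.59 to 1.39, Sparc -0.16 to 0.20. They were, without UV, Fn1 -0.29 to 0.77. They were, with UVB, Ogn -7.50 to 0.44, Fbn1 -4.81 to 1.17. They were, for UVB in EGFP+ cells, Dcn -0.38 to 0.89, Postn -2.04 to 0.27, Sparc -0.0014 to 0.72, Pdgfra -1.61 to 3.04. They were, for UVB in tdTomato+ cells, Dcn -0.19 to 0.17, Fbn1 -0.82 to 1.68, Postn -0.0271 to 0.86. They were, for the difference of the UVB changes, Dcn -0.37 to 0.89, Lum -1.07 to 1.57, Pdgfra -3.54 to 1.11.

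With mouse as a replicate block, 8 members were called over all mice (Pdgfra joined, adjusted p = 0.039), 5 with UVB, 6 without UV and 0 for the difference of the UVB changes, and no other member's call changed. With the replicate number as a block, UVB called 0 members in either population and 2 genes in EGFP+ and 70 in tdTomato+ cells. Those numbers name different mice, and by number the deviations correlated at 0.161 in EGFP+ and 0.0295 in tdTomato+ cells.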
